A study of Mus musculus with 12 samples.

Results

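Explants of lung metastases grown from NMuMG-ErbB2 cells that overexpress PGC-1alpha were compared with explants grown from the control cells that the labels call VC, with both kept in water. The comparison takes in 6 of the 12 arrays of the study, 3 of each line, chosen by their sample titles, and describes all 19505 genes that the arrays measured with a named probe set. NMuMG is an epithelial line from the mouse mammary gland, and ErbB2 is the receptor tyrosine kinase oncogene that the cells of both lines carry. The cells of both lines had been injected into the tail vein of mice, the lesions that formed in the lung were taken into culture, and the explants received distilled water as the vehicle for 4 days before their total RNA was measured. The other 6 arrays hold explants of the same lines under 100 uM phenformin, a drug of the biguanide class known to block respiratory complex I. They do not enter the water differences, but the spread behind each water p-value was estimated from all 12 arrays. The labels used here do not say whether the replicates of a group came from separate mice or cultures, nor whether a line was 1 clone. Every p-value here is therefore set against the spread among the samples at hand, and that spread may be technical. PGC-1alpha cannot be told apart from any other difference between the lines. In these bulk samples, fewer cells of a type and less RNA per cell cannot be told apart either.

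PGC-1alpha, the product of Ppargc1a, is a transcriptional coactivator: it does not bind DNA itself but is recruited by nuclear receptors such as the estrogen-related receptors and by other factors such as NRF1. It is known for raising the genes of the respiratory chain, fatty acid oxidation and mitochondrial biogenesis in muscle, brown fat and liver. In tumours it has been linked to oxidative metabolism and to metastasis.

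The values are those the authors deposited, read as log2 expression because they run to 13.65 at most with near-equal medians. Each array's background was taken as the 95th percentile of its 5222 negative control probe sets, which lay between 7.74 and 7.91 in the PGC-1alpha water arrays and between 7.72 and 7.82 in the VC water arrays. At most 38.3% of genes exceeded it in a PGC-1alpha array, against 39.1% in a VC array. The 3 VC arrays differed more among themselves, by a mean absolute log2 difference of 0.244 to 0.311 per pair, than the 3 PGC-1alpha arrays, at 0.202 to 0.235. On principal components of the 12 arrays, VC array 2 lay far out on the second and VC array 3 on the third. Array quality weights were 0.50 for VC array 2 and 0.38 for VC array 3. Counts below are also given without single arrays where that matters.

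Ppargc1a itself had values of 8.11, 8.06 and 8.26 in PGC-1alpha explants, against 7.21, 7.05 and 7.08 in VC explants. The lines did not overlap, and only the PGC-1alpha arrays lay above background, so the difference of 1.03 ± 0.11 (SE, limma adjusted p = 0.000201) is given as at least 1.29-fold higher. Its relatives did not pass the test: Ppargc1b, which encodes PGC-1beta, differed by 0.13 ± 0.11 and Pprc1 by 0.09 ± 0.19. The epithelial markers Krt8, Krt18, Cdh1 and Krt19 and the oncogene Erbb2 were above background in all 6 arrays. Erbb2 had 10.11, 10.20 and 10.09 in PGC-1alpha explants, against 9.93, 10.11 and 10.12 in VC explants, so the groups overlapped. The other 9 of the 14 markers of a mammary epithelial line, among them Epcam, Cldn3, Cldn4, Cldn7, Esrp1, Grhl2, Erbb3 and Elf3, exceeded background in none of the 6 arrays, while the mesenchymal filament gene Vim stood between 13.16 and 13.23 in PGC-1alpha explants and between 13.42 and 13.45 in VC explants. Krt7, a simple epithelial keratin and the 1 marker of the list that passed, was lower below background (-0.66 ± 0.14) and lost its call without PGC-1alpha array 1 or 3 or VC array 2 or 3 (adjusted p of up to 0.0876). The epithelial label of the parent line is thus borne by keratins and E-cadherin but not by the full marker list.

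Markers of the other cells that a lung lesion could hold were mostly in the range of the negative controls. Among 17 fibroblast and mural cell markers 0 passed the test, at most 1 exceeded background in any array, and the list's mean log2 level ran from 5.29 to 5.47 in PGC-1alpha arrays and from 5.26 to 5.57 in VC arrays. Among 25 leukocyte markers, Mrc1, the macrophage mannose receptor, was higher and Ptpn7, a tyrosine phosphatase of blood cells, was lower, while Ptprc, which encodes the pan-leukocyte antigen CD45, and the macrophage genes Adgre1, Csf1r and Lyz2 were at background in all 6 arrays. The leukocyte list's mean level was 5.59 to 5.75 in PGC-1alpha arrays and 5.59 to 5.76 in VC arrays. Of 17 endothelial markers Selp was higher and Flt1, a receptor for VEGF, lower, and Pecam1 and Cdh5 were at background. Flt1 lost its call without PGC-1alpha array 1 or 3 or VC array 3 (adjusted p of up to 0.121). The endothelial list's mean level was 5.79 to 5.99 in PGC-1alpha arrays and 5.72 to 5.96 in VC arrays, with 2 or 3 members above background in an array. Of 16 lung epithelial markers Aqp5 alone passed, lower, with the surfactant gene Sftpc and the club cell gene Scgb1a1 at background. That list's mean level was 6.04 to 6.20 in PGC-1alpha arrays and 6.12 to 6.45 in VC arrays. The levels of these 4 lists thus overlapped between the lines, and their part in the results was not tested.

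Of the 19505 genes, 391 passed limma's test at an adjusted p under 0.05, which is 2.0%: 124 were higher in PGC-1alpha explants (0.636%) and 267 lower (1.37%). All 391 had 3 PGC-1alpha arrays on 1 side of the 3 VC arrays, as did 2759 genes in all (14.1%), of which 1274 were higher (6.53%) and 1485 lower (7.61%). The median absolute log2 difference of the 391 was 0.74, and 90 of them (28 higher and 62 lower) differed by at least 1, a 2-fold change. The split between directions depended on the scale and on 1 array: with each array centred on its negative controls, which lowered every gene's difference by 0.088 alike and put the median of all genes at -0.085, 17.8% of the calls were higher in place of 31.7%, and without VC array 3 the share was 44.7%. Leaving out single arrays gave 247 calls without PGC-1alpha array 1, 274 without PGC-1alpha array 2, 283 without PGC-1alpha array 3, and 319, 330 and 329 without VC arrays 1, 2 and 3. Of the 391 calls, 181 (46.3%) passed in all 6 of these fits, 59 of them higher and 122 lower, and 13 passed in none of them.

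**Figure D1:**
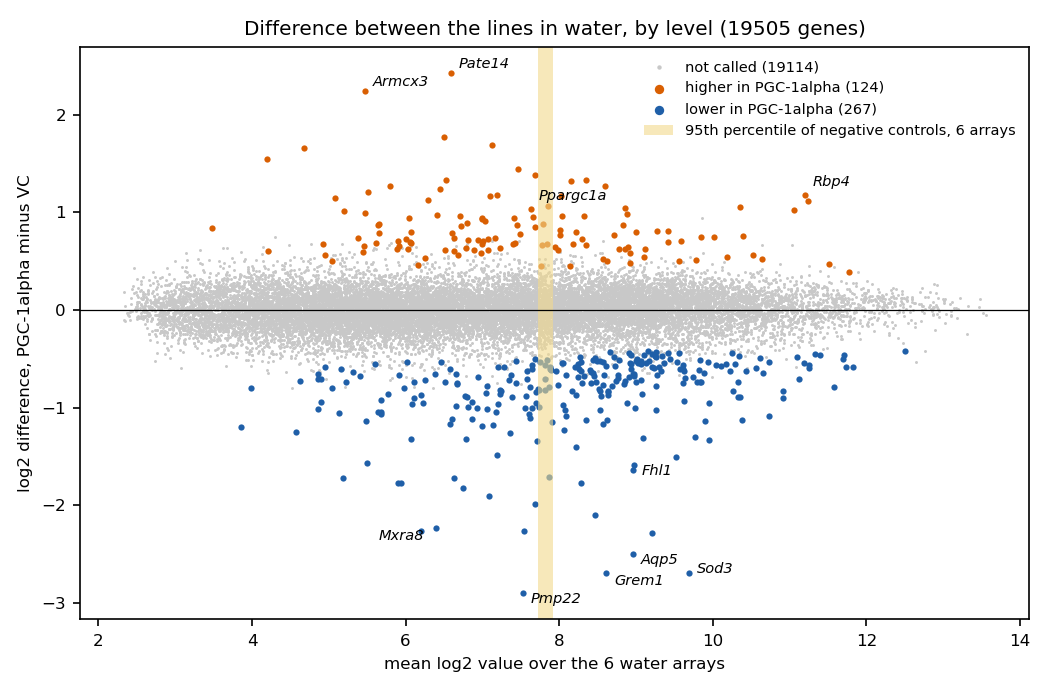
Difference between the lines in water (vertical axis, log2, PGC-1alpha minus VC) against the mean log2 value over the 6 water arrays (horizontal axis), 1 point per gene. The 124 higher genes (orange) and 267 lower genes (blue) lie among the 19114 that did not pass (grey). The yellow band spans the 6 arrays' 95th percentiles of negative controls, and the lower genes outnumber the higher ones to the right of it.

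How far a difference can be read depends on the level. Of 6410 genes above background in all 6 arrays, 165 passed (2.57%), 36 higher and 129 lower. Of 71 genes above background in all arrays of 1 line and in no array of the other, 44 passed (62.0%). Of these, 10 were measured only in PGC-1alpha explants and 34 only in VC explants, out of 13 and 58 such genes. This class was picked by the same 6 arrays for standing apart between the lines. Its share of calls therefore follows in part from that choice and cannot be set beside the other shares. Of 1609 genes above background in some arrays of a line, 65 passed (4.04%), 21 higher and 44 lower. In the 11415 genes that exceeded background in no array, 117 passed (1.02%), 57 higher and 60 lower. On the deposited scale, the excess of lower genes was thus found among genes measured in both lines, where 21.8% of the calls were higher. Below background 48.7% of the calls were higher. This split by level was not counted after centring on the negative controls or without single arrays. Differences below background are given without a fold.

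Among genes measured in both lines that were higher in PGC-1alpha explants, Rbp4, Clu and Ccn2 had the largest differences. Rbp4, the carrier of retinol in blood, stood at 11.69, 11.73 and 11.93 in PGC-1alpha explants, against 10.87, 10.50 and 10.46 in VC explants, a difference of 1.17 ± 0.12 or 2.26-fold (adjusted p = 0.000105). Clu, the extracellular chaperone clusterin, had 11.81, 11.79 and 11.81 in PGC-1alpha explants, against 10.74, 10.55 and 10.76 in VC explants, or 2.17-fold (adjusted p = 3.11e-05). Ccn2, a matrix-associated growth factor also known as connective tissue growth factor and a common target of the Hippo pathway, had 10.86, 10.78 and 10.997 in PGC-1alpha explants, against 9.98, 9.66 and 9.82 in VC explants, or 2.09-fold (adjusted p = 9.73e-05). The groups did not overlap in any of the 3 genes. Ccn4, a relative of Ccn2 in the CCN family, went the other way, at 7.39, 7.64 and 7.63 in PGC-1alpha explants, against 8.36, 8.52 and 8.72 in VC explants, at least 1.64-fold lower (adjusted p = 0.000972).

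Some genes known from intestinal epithelium were higher. Vil1, the actin bundler villin of the brush border, had 9.18, 9.44 and 9.52 in PGC-1alpha explants, against 8.27, 8.35 and 8.39 in VC explants, or 2.06-fold (adjusted p = 0.000223). Cdh17, the liver-intestine cadherin, had 11.50, 11.60 and 11.62 in PGC-1alpha explants, against 10.73, 10.31 and 10.58 in VC explants, or 2.04-fold (adjusted p = 0.000369). Clca3b, of the family of chloride channel accessory proteins, was measured in PGC-1alpha explants only, at 8.65, 8.52 and 8.64, against 7.58, 7.04 and 7.67 in VC explants, at least 1.77-fold. In a list of 28 gut and brush border genes, chosen after the values were seen, 5 were higher (these 3 with Tspan8 and Mep1a) and 0 lower (17.9%, beside 2.0% of all genes), and the list's median difference was 0.02, so the list as a whole was not shifted. Tspan8 lost its call without PGC-1alpha array 1 or 2 or VC array 1 or 2 (adjusted p of up to 0.0721). Mep1a lost it without any single array (up to 0.154).

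Further measured genes that were higher included regulators of signalling and lipids. Fermt1, the integrin activator kindlin-1 of epithelial cells, had 9.82, 9.81 and 9.81 in PGC-1alpha explants, against 8.97, 8.87 and 9.18 in VC explants, or 1.75-fold. Lsr, a receptor for lipoproteins that also builds tricellular junctions, had 9.74, 9.64 and 9.67 in PGC-1alpha explants, against 8.82, 8.86 and 8.94 in VC explants, or 1.75-fold. Foxf1, a forkhead transcription factor of lung mesenchyme, had 8.56, 8.52 and 8.79 in PGC-1alpha explants, against 7.86, 7.83 and 7.77 in VC explants, or 1.75-fold. None of these groups overlapped, and all 3 genes passed without each single array. Rgl1, a Ral exchange factor, was 1.84-fold higher, the complement-activating protease Masp1 1.74-fold, Gimd1 1.68-fold, S100a7a 1.69-fold and choline kinase, Chka, 1.68-fold. Chchd10, a protein of the mitochondrial intermembrane space, had 9.17, 9.17 and 9.76 in PGC-1alpha explants, against 8.83, 8.23 and 8.10 in VC explants, or 1.98-fold, but lost its call without PGC-1alpha array 3, VC array 2 or VC array 3 (adjusted p of up to 0.0570). Tcn2, the vitamin B12 carrier transcobalamin, was 1.70-fold higher and lost its call without PGC-1alpha array 1 or 3 or without VC array 2 or 3 (adjusted p of up to 0.0988).

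Some higher genes were above background mainly in the PGC-1alpha arrays. Trpa1, an ion channel that senses irritants, had 8.32, 8.48 and 8.34 in PGC-1alpha explants, against 6.86, 6.81 and 7.31 in VC explants, at least 1.51-fold higher (adjusted p = 0.00103). Csn3, the milk protein kappa-casein, had 7.95, 8.25 and 8.36 in PGC-1alpha explants, against 6.98, 6.38 and 6.85 in VC explants, at least 1.32-fold. Rab3b, a small GTPase of regulated secretion, had 8.24, 8.25 and 8.68 in PGC-1alpha explants, against 7.40, 7.20 and 7.36 in VC explants, at least 1.52-fold. All 3 exceeded background in every PGC-1alpha array and in no VC array. Ugt2b34, a glucuronosyltransferase, had 9.01, 9.07 and 8.99 in PGC-1alpha explants, against 7.60, 7.38 and 8.07 in VC explants, of which 1 was above background. Mrc1 had 9.18, 9.22 and 9.29 in PGC-1alpha explants, against 8.15, 7.47 and 8.24 in VC explants, of which 2 were above background. Epha5, a receptor for ephrins, had 8.04, 8.11 and 7.74 in PGC-1alpha explants, 2 of them above background, against 6.32, 6.49 and 6.03 in VC explants, a difference of 1.69 ± 0.15 that is at least 1.14-fold because the VC arrays were at background. Pate14 had the largest rise of all genes (2.43 ± 0.23), given as at least 1.02-fold. It had 7.42, 8.06 and 7.94 in PGC-1alpha explants, 2 of them above background, against 5.45, 5.03 and 5.66 in VC explants. The groups did not overlap in these genes, and Trpa1, Csn3, Rab3b, Ugt2b34, Mrc1, Epha5 and Pate14 passed without each single array. Selp, the adhesion molecule P-selectin, had 8.55, 8.45 and 9.45 in PGC-1alpha explants, against 8.10, 6.81 and 7.57 in VC explants, 1 of them above background, and lost its call without PGC-1alpha array 3, VC array 2 or VC array 3 (adjusted p of up to 0.0970).

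Among the lower genes measured in both lines, Fhl1, a LIM protein of muscle and of the actin cytoskeleton, had the largest difference. It stood at 8.14, 8.20 and 8.19 in PGC-1alpha explants, against 9.72, 9.73 and 9.86 in VC explants, 3.01-fold lower (log2 difference -1.59 ± 0.11, adjusted p = 3.64e-06). The arrays of each line lay close together and far from those of the other line. Tubb4a and Tubb2a, both beta-tubulins, were lower as well: Tubb4a had 8.40, 8.40 and 8.50 in PGC-1alpha explants, against 9.65, 9.79 and 9.80 in VC explants, or 2.49-fold. Tubb2a had 8.93, 9.15 and 9.40 in PGC-1alpha explants, against 10.24, 9.97 and 10.08 in VC explants, or 1.91-fold. In a list of 46 actin binding and focal adhesion genes, chosen after the values were seen, 13 were lower and 1 higher (30.4%, beside 2.0% of all genes), and the median difference was -0.18 beside 0.003 over all genes. Its lower members included Avil (advillin), Pdlim2, Ablim3, the actin-severing Gsn, the tensin Tns1 and the adhesion adaptor Lims2, and its higher member was Fermt1. Gsn had 10.24, 10.45 and 10.31 in PGC-1alpha explants, against 10.87, 11.03 and 11.03 in VC explants, 1.56-fold lower. The lower members Vcl, the adhesion protein vinculin (-0.55 ± 0.12), and Mylk, the myosin light chain kinase (-0.74 ± 0.14), lost their calls without single arrays: Vcl without PGC-1alpha array 2 or 3 or VC array 3 (adjusted p of up to 0.116), Mylk without PGC-1alpha array 3 or VC array 3 (up to 0.0570).

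**Figure D2:**
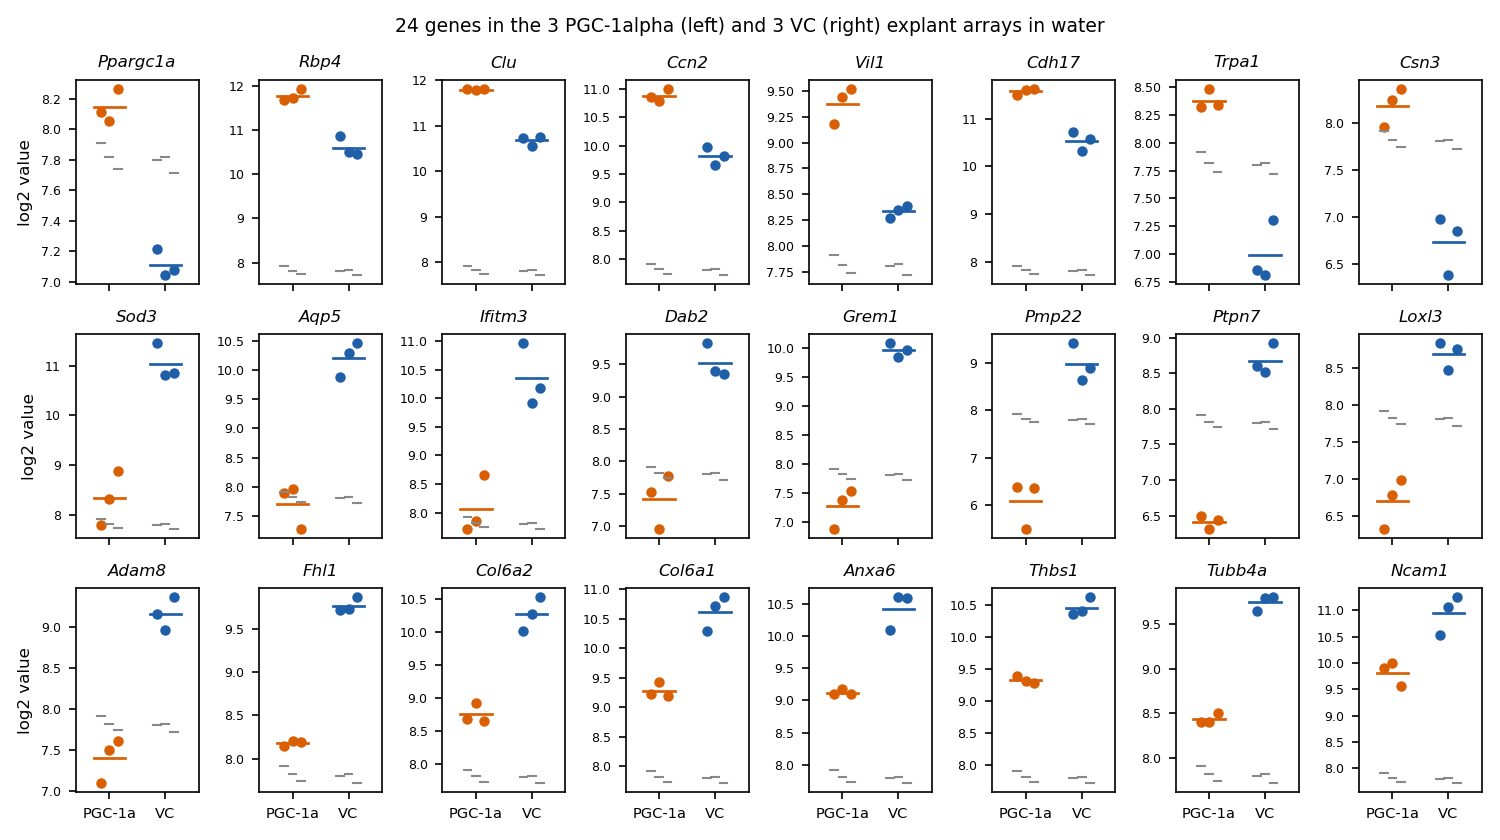
Log2 values of 24 genes in the 3 PGC-1alpha arrays (orange, left in each panel) and the 3 VC arrays (blue, right), all in water. Coloured bars are group means and short grey bars mark each array's 95th percentile of negative controls. In every panel the 3 PGC-1alpha points lie on 1 side of the 3 VC points, and for genes such as Ppargc1a, Grem1 and Pmp22 only 1 line lies above the grey bars.

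Some genes of the extracellular matrix passed, most of them lower. The alpha-1 and alpha-2 chains of collagen VI, the beaded-filament collagen of the pericellular matrix, were both lower. Col6a2 had 8.68, 8.94 and 8.66 in PGC-1alpha explants, against 10.02, 10.27 and 10.52 in VC explants, or 2.85-fold (adjusted p = 0.000146). Col6a1 had 9.23, 9.42 and 9.19 in PGC-1alpha explants, against 10.29, 10.71 and 10.86 in VC explants, or 2.52-fold (adjusted p = 0.000308). They were the 2 of 42 collagen chains that passed (4.76%, beside 2.0% of all genes), and the median over the 42 was -0.05. Thbs1, the matricellular protein thrombospondin, had 9.40, 9.31 and 9.28 in PGC-1alpha explants, against 10.36, 10.41 and 10.63 in VC explants, or 2.20-fold. Sparc, another matricellular protein, had 11.46, 11.46 and 11.41 in PGC-1alpha explants, against 11.95, 12.05 and 12.07 in VC explants, a difference of -0.58 ± 0.10. With Mxra8, Thbs3 and Lamb3 these were 5 lower members of 46 matrix glycoproteins and proteoglycans, where Spon2 was higher (13.0% called, beside 2.0% of all genes). Mxra8, Thbs3 and Spon2 were below background in all 6 arrays. Lamb3 and Spon2 depended on single arrays: Lamb3 (-0.62 ± 0.14) lost its call without PGC-1alpha array 1 or 3 or VC array 2 or 3 (adjusted p of up to 0.144), Spon2 (0.71 ± 0.14) without PGC-1alpha array 1 or 2 (up to 0.0778). Loxl3, a lysyl oxidase that cross-links collagen and elastin, was measured in VC explants only, with 6.32, 6.78 and 6.98 in PGC-1alpha explants, against 8.83, 8.47 and 8.75 in VC explants, at least 1.81-fold lower. Of 24 integrins 0 passed in limma's test, and the median was -0.12. An unadjusted p under 0.05 was found for 5, all lower, beside 2304 of all 19505 genes in either direction.

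Of 34 matrix proteases and their inhibitors, 5 were lower and 1 higher (17.6%, beside 2.0% of all genes). Adam8, a metalloprotease of the cell surface, had 7.09, 7.49 and 7.60 in PGC-1alpha explants, against 9.16, 8.97 and 9.37 in VC explants, at least 2.54-fold lower (adjusted p = 1.98e-05). The stromelysin Mmp3 (-0.78 ± 0.15) and the metalloprotease Adam12 (-0.74 ± 0.11) were lower below background. The stromelysin Mmp10 was the higher one (0.86 ± 0.17), also below background, and lost its call without PGC-1alpha array 3 or VC array 1 or 2 (adjusted p of up to 0.0841). Serpinb2, the inhibitor of urokinase PAI-2, was 1.59-fold lower and lost its call without PGC-1alpha array 1 (adjusted p = 0.060). Timp1, an inhibitor of matrix metalloproteases, was 1.41-fold lower and kept its call only without VC array 1 (adjusted p otherwise of up to 0.127). The lower members thus held 3 proteases and 2 inhibitors of proteases, and the higher one was a protease.

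The largest differences of all were found in genes near or below background in PGC-1alpha explants. Pmp22, a tetraspan membrane protein of peripheral myelin, had 6.38, 5.49 and 6.36 in PGC-1alpha explants, against 9.41, 8.63 and 8.89 in VC explants (-2.90 ± 0.23, at least 2.22-fold lower). Grem1, a secreted antagonist of bone morphogenetic proteins, had 6.88, 7.38 and 7.54 in PGC-1alpha explants, against 10.08, 9.84 and 9.96 in VC explants (-2.69 ± 0.16, at least 4.40-fold lower). Ptpn7 had 6.49, 6.31 and 6.44 in PGC-1alpha explants, against 8.60, 8.52 and 8.92 in VC explants, at least 1.81-fold lower. These 3 genes exceeded background in every VC array and in no PGC-1alpha array. Sod3, the extracellular superoxide dismutase, had 7.81, 8.32 and 8.89 in PGC-1alpha explants, 2 of them above background, against 11.45, 10.80 and 10.86 in VC explants. Aqp5, a water channel of glands and alveoli, had 7.90, 7.96 and 7.27 in PGC-1alpha explants, 1 of them above background, against 9.89, 10.29 and 10.46 in VC explants. Dab2, a clathrin adaptor for endocytosis, had 7.53, 6.96 and 7.78 in PGC-1alpha explants, 1 of them above background, against 9.82, 9.39 and 9.35 in VC explants. The lines stood more than 1.5 log2 units apart at their nearest arrays in Sod3, Aqp5 and Dab2.

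Their families did not follow as a whole. Of 10 Pmp22, Emp and Mal tetraspan genes 3 were lower: besides Pmp22 these were Emp2, with 9.84, 9.92 and 9.81 in PGC-1alpha explants, against 10.53, 10.66 and 10.86 in VC explants (1.78-fold), and Mal, a raft protein of apical transport, with 7.51, 7.87 and 7.96 in PGC-1alpha explants, 2 of them above background, against 8.73, 8.45 and 8.79 in VC explants (-0.87 ± 0.13). Of 20 genes for the removal of superoxide and peroxide Sod3 alone passed. Sod2, the mitochondrial superoxide dismutase, differed by 0.16 ± 0.10 and did not pass. Of 11 aquaporins 2 were lower (18.2%, beside 1.37% of all genes). Besides Aqp5 this was Aqp1 (-1.11 ± 0.21), which lost its call without PGC-1alpha array 3, VC array 2 or VC array 3 (adjusted p of up to 0.0616). Of 38 endocytic adaptors and receptors 4 were lower and Mrc1 was higher (13.2% called, beside 2.0% of all genes). The lower ones besides Dab2 included Lrp1, a large scavenger receptor, with 9.46, 9.54 and 9.40 in PGC-1alpha explants, against 10.00, 10.33 and 10.28 in VC explants (1.66-fold). Of 46 BMP and TGF-beta signalling genes 6.52% passed, beside 2.0% of all genes, and the list median was 0.01. Grem1 was lower, and the ligand Bmp2 (0.70 ± 0.17) and the target Id2 (0.47 ± 0.10) were higher, Bmp2 below background in all 6 arrays. Both lost their calls without single arrays: Bmp2 without any except PGC-1alpha array 1 (adjusted p of up to 0.167), Id2 without PGC-1alpha array 1 or 2 or VC array 1 (up to 0.0793).

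Annexins, the calcium-dependent membrane-binding proteins, had the largest share of calls among the lists of 10 or more genes. It was 5 of 12 (41.7%, beside 2.0% of all genes), and they moved both ways. Anxa6 had 9.10, 9.18 and 9.09 in PGC-1alpha explants, against 10.09, 10.60 and 10.58 in VC explants, 2.47-fold lower (adjusted p = 8.15e-05). Anxa8 had 10.56, 10.51 and 10.45 in PGC-1alpha explants, against 11.29, 11.38 and 11.33 in VC explants, 1.77-fold lower. Anxa10 had 8.41, 8.61 and 8.54 in PGC-1alpha explants, against 7.44, 7.36 and 7.86 in VC explants, of which 1 was above background, a difference of 0.96 ± 0.15. All 3 passed without each single array. Anxa1 (-0.42 ± 0.10) lost its call without any single array (adjusted p of up to 0.141), and Anxa13 (0.52 ± 0.13) kept its call only without VC array 3 (adjusted p otherwise of up to 0.173). The median over the 12 was -0.05.

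The genes for which PGC-1alpha is best known did not pass singly. Of 35 complex I subunits 0 passed, of 26 genes of complexes II to IV and cytochrome c 0, of 16 ATP synthase genes 0, of 17 genes of the tricarboxylic acid cycle 0 and of 27 genes of fatty acid oxidation 0 in limma's test. At an unadjusted p under 0.05 there were 5, 5, 6, 2 and 2 such genes in these lists, and 5, 5, 4, 1 and 1 of them were higher. Over all 19505 genes there were 2304, of which 1008 were higher. Their median differences were 0.19 for complex I, 0.16 for complexes II to IV, 0.13 for ATP synthase, 0.06 for the tricarboxylic acid cycle and -0.06 for fatty acid oxidation, beside 0.03 for all genes above background in both lines. Centred on the negative controls, the medians of complex I, complexes II to IV and ATP synthase were 0.10, 0.07 and 0.04, beside -0.06 for all genes above background in both lines. This centring lowers all differences by the same 0.088, so it leaves each list where it was relative to the others. A positive difference was found for 29, 21, 12, 11 and 7 genes of the 5 lists in the order above, beside 9888 of all 19505. Genes without overlap between the lines numbered 8, 9, 8, 3 and 1 higher, beside 6.53% of all genes. Lower ones numbered 0, 2, 3, 1 and 5, beside 7.61%. In the phenformin arrays the 5 medians were 0.055, 0.015, 0.035, 0.022 and -0.046, beside -0.064 for the genes above background in both lines in water. The mean log2 level over the complex I subunits was 9.59, 9.67 and 9.64 in PGC-1alpha arrays, against 9.44, 9.38 and 9.61 in VC arrays, so VC array 3 lay inside the PGC-1alpha range. Over complexes II to IV it was 10.51, 10.50 and 10.48 in PGC-1alpha arrays, against 10.33, 10.37 and 10.42 in VC arrays. The complex I subunit closest to the threshold was Ndufa1, with 8.23, 8.59 and 8.54 in PGC-1alpha explants, against 8.06, 7.63 and 8.02 in VC explants (0.55 ± 0.13, adjusted p = 0.0507). Cycs, which encodes cytochrome c, had 11.79, 11.86 and 11.45 in PGC-1alpha explants, against 11.23, 11.62 and 11.76 in VC explants, so the groups overlapped.

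Ribosomal protein genes showed a like pattern. Of 59 cytosolic ribosomal protein genes 0 passed in limma's test. An unadjusted p under 0.05 was found for 8, all higher, beside 1008 of all 19505 genes in that direction. A positive difference was found for 57, beside 9888 of all genes. Of the 59, 17 did not overlap between the lines, all of them higher, beside 6.53% of all genes in that direction. The median over the 59 was 0.13, or 0.04 after that common shift. The mean over the 59 was 11.73, 11.73 and 11.65 in PGC-1alpha arrays, against 11.47, 11.56 and 11.63 in VC arrays. Of 76 mitochondrial ribosomal protein genes 62 had a positive difference, the median was 0.14, and 1 passed, lower: Mrpl39 (-0.47), which lost its call without PGC-1alpha array 1 or 2 or VC array 1 or 3 (adjusted p of up to 0.130). Of 24 PGC-1 coactivators and partner factors Ppargc1a was the 1 that passed. Mfn2, the outer membrane fusion protein mitofusin that PGC-1alpha is known to raise in muscle, was lower, with 8.67, 8.77 and 8.68 in PGC-1alpha explants, against 9.11, 9.14 and 9.24 in VC explants (1.37-fold, adjusted p = 0.0202), and lost its call without PGC-1alpha array 1 or 3 or VC array 3 (adjusted p of up to 0.0824).

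Of 22 genes of glycolysis and lactate metabolism, glucose and lactate transporters included, 3 were lower and none higher (13.6%, beside 1.37% of all genes lower), and the list's median was -0.11. Slc2a1, the glucose transporter GLUT1, had 11.27, 11.37 and 10.91 in PGC-1alpha explants, against 11.89, 12.004 and 12.01 in VC explants, 1.72-fold lower. Pfkm and Pfkp, both phosphofructokinases, were 1.54-fold and 1.53-fold lower. Pfkm passed without each single array. Slc2a1 lost its call without PGC-1alpha array 3 (adjusted p = 0.0505) and Pfkp without PGC-1alpha array 1 (adjusted p = 0.0596). Of 22 hypoxia targets 3 were lower and none higher (13.6%, beside the same 1.37%), and the median was -0.16, or -0.25 after the common shift of 0.088 under centring on the negative controls. Egln3, a prolyl hydroxylase of the hypoxia-inducible factors and itself their target, had 10.01, 10.06 and 9.83 in PGC-1alpha explants, against 10.69, 10.69 and 10.71 in VC explants, 1.66-fold lower. Bhlhe40, a transcriptional repressor of the circadian and hypoxia response, was 1.45-fold lower. Stc1, the hormone stanniocalcin, was lower below background (-0.90 ± 0.18) and lost its call without PGC-1alpha array 1 or 3 or VC array 1 or 2 (adjusted p of up to 0.0930).

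**Figure D3:**
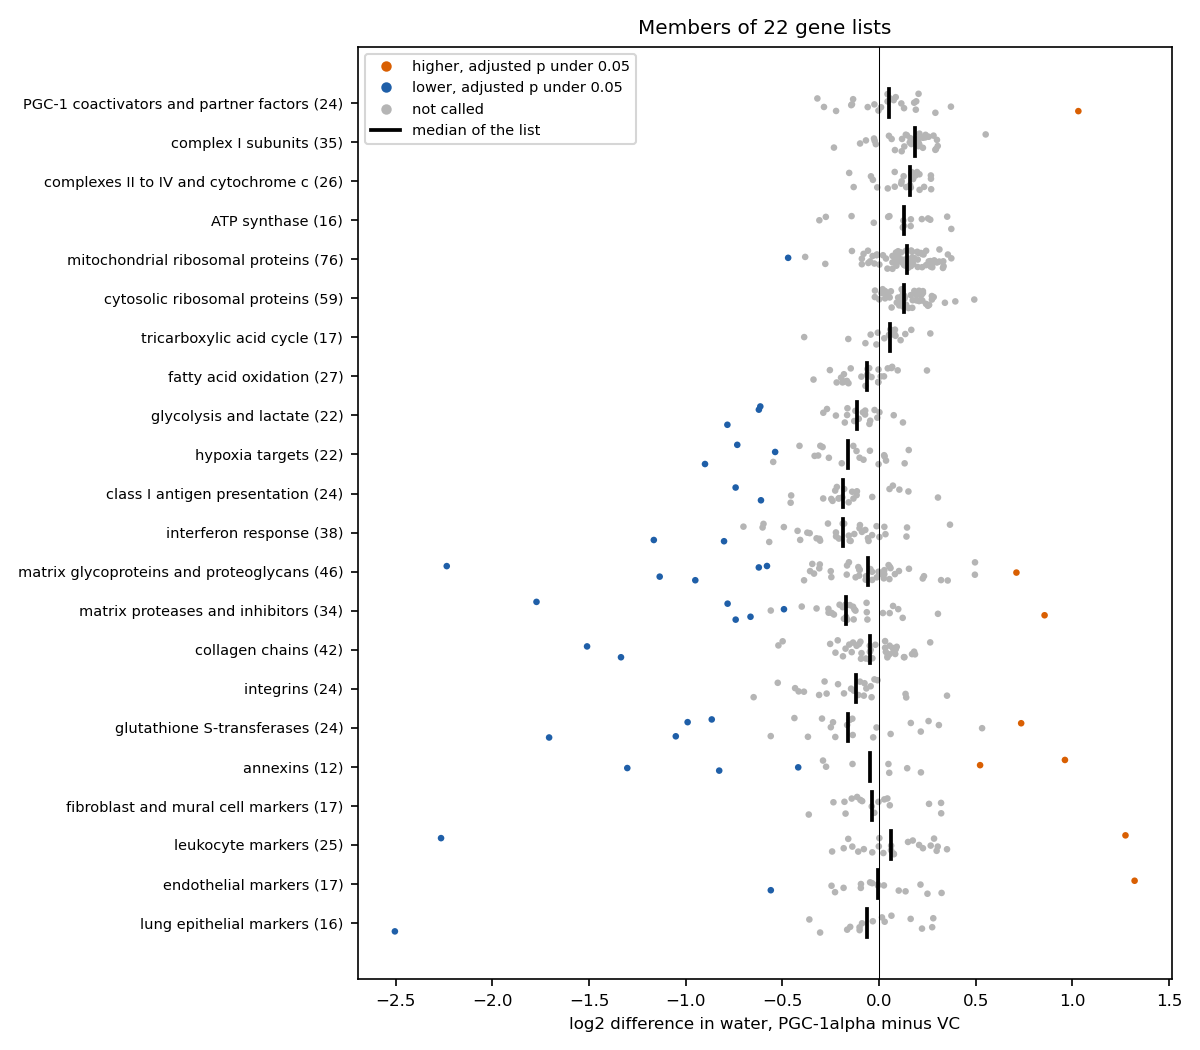
Log2 difference in water (horizontal axis, PGC-1alpha minus VC) of the members of 22 gene lists, 1 point per gene, with the number of measured genes in brackets. Orange and blue points passed the test higher and lower, grey ones did not, vertical jitter carries no value, and black bars are list medians. The respiratory chain and ribosomal lists sit to the right of 0 with almost no coloured points, while the glycolysis, hypoxia, interferon, matrix and glutathione S-transferase lists hold single blue points far to the left.

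Of 38 interferon response genes 2 were lower (5.26%, beside 1.37% of all genes). A negative difference was found for 32 of the 38, beside 9613 of all 19505 genes. The list's median was -0.18, beside 0.003 over all genes. The called ones were Ifi27 (-1.17 ± 0.21) and Parp9 (-0.80 ± 0.17), both below background in all 6 arrays, and Parp9 kept its call only without VC array 1 or 2 (adjusted p otherwise of up to 0.100). Dtx3l, the ubiquitin ligase that acts with Parp9 and is its neighbour in the genome, had 7.39, 7.46 and 7.38 in PGC-1alpha explants, against 8.11, 8.23 and 8.34 in VC explants, at least 1.32-fold lower. Ifitm3, a membrane protein that blocks virus entry and is induced by interferon, had 7.71, 7.85 and 8.65 in PGC-1alpha explants, 2 of them above background, against 10.96, 9.92 and 10.19 in VC explants. It was the 1 of 6 Ifitm genes that passed (16.7%, beside 2.0% of all genes). Of 24 class I antigen presentation genes 2 were lower (8.33%, beside 1.37% of all genes), both heavy chains of the class I complex. H2-K1 had 8.56, 8.61 and 8.71 in PGC-1alpha explants, against 9.43, 9.20 and 9.48 in VC explants, 1.67-fold lower. H2-D1 had 7.48, 7.68 and 7.59 in PGC-1alpha explants, against 8.10, 8.27 and 8.22 in VC explants, a difference of -0.61 ± 0.12, and lost its call without PGC-1alpha array 1 (adjusted p = 0.060). Closely related class I genes may share probe sequence, and this was not tested.

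Promoter windows of 250 bases before to 50 after the start of each gene were available from RefSeq (GRCm38.p6) for 15691 of the genes tested, 93 of the higher and 205 of the lower ones. Among 8 motifs searched on both strands, chosen after the values were seen, was the core of the interferon-stimulated response element, which is TTTC, any 2 bases and again TTTC. It was present for 15 of the 205 lower genes (7.32%) and 3 of the 93 higher genes (3.23%), beside 3.94% of all 15691. The element of the estrogen-related receptors through which PGC-1alpha acts, TNAAGGTCA, was present for 0 of either group, beside 1.13% of all. At so low a share few matches would be found in groups of this size, and the difference was not tested. The NRF1 motif, GCGC, any base and TGCGC, was present for 5.85% of the lower and 7.53% of the higher genes, beside 7.63% of all. The AP-1 site TGACTCA was present for 9.76% of the lower and 6.45% of the higher genes, beside 5.51% of all, and the TEAD site GGAATG for 19.5% and 16.1%, beside 15.3% of all. The NF-kB motif (GGG, any 2 bases, TTTCC), the E-box CACGTG and 1 form of the serum response element were present for 1.46%, 6.83% and 0% of the lower genes and 1.08%, 5.38% and 0% of the higher genes, beside 1.82%, 9.26% and 0.102% of all. A match describes letters and not a bound site. The 4 windows below, picked after the values were seen, are shown because they place the interferon core beside lower genes that were above background in VC explants, read along the strand of the gene with the core in capitals. Apobec3, Mylk, Pilra, Pilrb2 and 9930111J21Rik1 were also lower, above background in every VC array and matched, and are not shown; Pilra and Pilrb2 are related copies. In Ifitm3 the core lies on the other strand and so reads as GAAA, 2 bases and GAAA.
Ifitm3, chr7:141010716-141010742, minus strand, bases 3 to 29 after the start: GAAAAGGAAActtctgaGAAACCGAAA
Tnfrsf1b, chr4:145246871-145246905, minus strand, core at 10 to 1 bases before the start: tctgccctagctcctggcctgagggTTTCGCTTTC
Apol9a, chr15:77411105-77411164, minus strand, core at 59 to 50 bases before the start: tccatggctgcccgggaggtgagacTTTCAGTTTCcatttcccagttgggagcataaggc
Apol9b, chr15:77729010-77729069, plus strand, core at 37 to 28 bases before the start: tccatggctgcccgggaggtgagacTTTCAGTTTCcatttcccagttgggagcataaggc

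Ifitm3 carries 2 copies of the core, and its values stand above. Tnfrsf1b, a receptor for tumour necrosis factor, had 7.74, 8.35 and 8.25 in PGC-1alpha explants, 2 of them above background, against 9.05, 8.84 and 8.90 in VC explants, a difference of -0.81 ± 0.14 (adjusted p = 0.00713). Apol9a, of the apolipoprotein L family, had 8.83, 8.96 and 8.83 in PGC-1alpha explants, against 9.81, 9.64 and 9.50 in VC explants, 1.72-fold lower. Apol9b had 7.41, 7.47 and 7.54 in PGC-1alpha explants, against 8.30, 8.22 and 8.25 in VC explants, at least 1.35-fold lower. The Apol9a and Apol9b windows are the same in 60 of 60 bases. The genes themselves were not compared, and whether the probe sets of one also measure the other was not tested. The groups did not overlap in any of these genes.

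Genes of the inflammasome and of the interleukin-1 family were lower in 7 of 23 cases and higher in none, beside 2.0% of all genes called and 1.37% lower. The list was chosen after the values were seen, its median was -0.25, and 18 of the 23 were at or under background in all 6 arrays. Casp1, the caspase that processes interleukin-1 beta, had 4.68, 5.02 and 5.36 in PGC-1alpha explants, against 6.69, 6.49 and 7.19 in VC explants (-1.77 ± 0.19). Il1rap, the shared accessory chain of interleukin-1 receptors, had 4.88, 5.30 and 5.01 in PGC-1alpha explants, against 6.74, 6.70 and 7.05 in VC explants (-1.77 ± 0.15). Both lie below background in all 6 arrays and carry no fold. Il33, an alarmin cytokine of epithelial cells, was well above it, with 10.75, 10.77 and 10.79 in PGC-1alpha explants, against 11.41, 11.44 and 11.59 in VC explants, 1.64-fold lower (adjusted p = 0.000994). Il18rap, a chain of the interleukin-18 receptor, had 8.53, 8.37 and 8.35 in PGC-1alpha explants, against 9.15, 8.93 and 9.27 in VC explants, 1.62-fold lower. The DNA sensor Aim2, the inflammatory caspase Casp4 and the ATP receptor P2rx7 were lower below background, and each lost its call without 4 of the 6 single arrays (adjusted p of up to 0.151, 0.122 and 0.137). Aim2 kept it without PGC-1alpha array 2 or VC array 3, and Casp4 and P2rx7 kept it without PGC-1alpha array 1 or VC array 2.

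Of 24 glutathione S-transferases 4 were lower, 1 was higher (20.8%, beside 2.0% of all genes) and 19 did not pass, and the list's median was -0.16. Gstm1 had 6.49, 6.77 and 7.77 in PGC-1alpha explants, 1 of them above background, against 9.25, 8.17 and 8.74 in VC explants, a difference of -1.71 ± 0.29 (adjusted p = 0.00538). Gstm2 (-0.99 ± 0.15) and Gstm7 (-0.87 ± 0.13) were lower below background. Gstm1 and Gstm2 are neighbours of similar sequence, and whether their probe sets share signal was not tested. Gstp3 (-1.05 ± 0.21) was lower and Gsto2 (0.73 ± 0.17) higher, both below background: Gstp3 lost its call without PGC-1alpha array 2 or 3 (adjusted p of up to 0.0766), and Gsto2 kept its call only without VC array 2 (otherwise up to 0.157). Aldh3a1, an aldehyde dehydrogenase, had 7.09, 7.15 and 6.94 in PGC-1alpha explants, against 8.06, 7.97 and 8.14 in VC explants, at least 1.18-fold lower. The cytochrome P450 Cyp1b1, which oxidises estrogens and aromatic compounds, had 5.39, 5.92 and 6.21 in PGC-1alpha explants, against 8.01, 7.53 and 7.43 in VC explants (-1.82 ± 0.19), while Cyp2c55 (0.69 ± 0.12) and Cyp11a1 (0.87 ± 0.16) were higher below background. Xdh, the xanthine dehydrogenase that also builds the milk fat globule, had 6.90, 7.49 and 6.73 in PGC-1alpha explants, against 8.16, 8.40 and 8.59 in VC explants, at least 1.47-fold lower, while Csn3, the other milk gene that passed, was higher.

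Further lower genes came from several families. Ncam1, a homophilic adhesion molecule, had 9.90, 9.99 and 9.57 in PGC-1alpha explants, against 10.53, 11.07 and 11.24 in VC explants, or 2.19-fold. Ppl, the desmosomal plakin periplakin, had 8.55, 8.90 and 8.81 in PGC-1alpha explants, against 9.75, 9.63 and 9.95 in VC explants, or 2.03-fold. Spns2, the exporter of sphingosine-1-phosphate, had 9.99, 10.28 and 10.27 in PGC-1alpha explants, against 11.32, 11.21 and 11.29 in VC explants, or 2.13-fold. None of these groups overlapped. Dgka, a diacylglycerol kinase, was 2.25-fold lower, and Lgals3bp, a secreted partner of galectins, 1.87-fold. St3gal5, the synthase of the ganglioside GM3, had 8.34, 8.47 and 8.63 in PGC-1alpha explants, against 9.47, 9.38 and 9.59 in VC explants. Apob, the structural protein of low density lipoprotein, had 9.58, 9.40 and 9.43 in PGC-1alpha explants, against 10.32, 10.40 and 10.56 in VC explants, or 1.94-fold. Ackr3, a scavenging receptor for the chemokine CXCL12, had 7.54, 7.53 and 7.58 in PGC-1alpha explants, against 8.78, 8.51 and 8.61 in VC explants, at least 1.75-fold lower. Of 22 Notch pathway genes the ligand Jag2 alone passed, lower (-1.02 ± 0.12), with 0 PGC-1alpha arrays and 1 VC array above background. That is 4.55% of the list, beside 2.0% of all genes.

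Single members of other families passed without each single array. Ces2g, a carboxylesterase, had 7.40, 7.46 and 7.66 in PGC-1alpha explants, against 8.92, 8.72 and 9.10 in VC explants, at least 2.13-fold lower. Glipr2, a Golgi-associated protein, had 7.36, 7.53 and 7.45 in PGC-1alpha explants, against 8.64, 8.84 and 8.53 in VC explants, a difference of -1.23 ± 0.15. Ctsh, the lysosomal protease cathepsin H, had 7.92, 7.92 and 8.10 in PGC-1alpha explants, against 8.74, 8.52 and 8.71 in VC explants (-0.68 ± 0.11), and the groups did not overlap in any of the 3 genes. The ion channel Trpv4 (-0.89 ± 0.15) was lower below background, while the carbonyl reductase Cbr1 (0.97 ± 0.15) was higher there. Of 375 solute carriers 4 were higher and 4 lower (2.13%, near the share of all genes). Those kept without each single array were the zinc importer Slc39a4 (-0.89 ± 0.14), lower, and Slc25a23, an ATP-magnesium phosphate carrier of mitochondria (1.17 ± 0.20), and Slc44a3 (1.27 ± 0.16), both higher. Slc44a3 was below background in all 6 arrays, and Slc25a23 exceeded it in 1 PGC-1alpha array only. Celf2, an RNA-binding regulator of splicing, had 8.63, 8.99 and 8.80 in PGC-1alpha explants, against 7.83, 7.67 and 8.01 in VC explants, 2 of them above background, a difference of 0.97 ± 0.13. The sulfotransferase Chst15 (1.33 ± 0.13) was higher below background.

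Lists of proliferation genes and some further lists held no called gene. Of 35 DNA replication genes, 30 mitosis genes, 22 p53 targets, 19 cholesterol synthesis genes, 40 Wnt pathway genes, 15 IGF axis genes and 33 Hox genes 0 passed in limma's test in each list. At an unadjusted p under 0.05 there were 5, 0, 1, 1, 4, 1 and 0 such genes, beside 2304 of all 19505. The median difference of these lists lay between -0.09 and 0.09. Non-overlapping genes numbered 6 among the replication genes and 1 among the mitosis genes, beside 14.1% of all genes.

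Below background the largest differences came from genes with no array above the negative controls. Armcx3, an armadillo protein of the mitochondrial outer membrane, had 6.16, 6.78 and 6.83 in PGC-1alpha explants, against 4.88, 3.93 and 4.23 in VC explants (2.24 ± 0.23). It was the 1 of 5 Armcx genes that passed (20.0%, beside 2.0% of all genes). Tlcd4 had 7.03, 7.44 and 7.68 in PGC-1alpha explants, against 5.50, 5.59 and 5.75 in VC explants (1.77 ± 0.17). Adgrg2, an adhesion receptor coupled to G proteins, had 4.92, 5.52 and 4.75 in PGC-1alpha explants, against 7.65, 7.003 and 7.35 in VC explants (-2.27 ± 0.22). Mxra8, a receptor for arthritogenic alphaviruses, had 5.11, 5.28 and 5.45 in PGC-1alpha explants, against 7.51, 7.39 and 7.66 in VC explants (-2.24 ± 0.13). Although each set of values lies in the range of the negative controls, the groups did not overlap. Olfactory and vomeronasal receptors, none of which exceeded background, give a view of that range: of 1410 such genes 2 passed (0.142%), both higher, the genomic neighbours Olfr846 (1.66 ± 0.24) and Olfr847 (1.55 ± 0.16), and the median of the 1410 was 0.01.

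The line difference was measured in 6 other samples by the phenformin arrays. Of the 391 genes, 387 had the same sign there, and 293 passed in the same direction (74.9% of the water calls and 37.4% of the 783 phenformin calls, which are 4.01% of all genes), with 0 passing in the opposite one. By direction, 66 of the 124 higher genes (53.2%) and 227 of the 267 lower genes (85.0%) passed again, beside 0.856% and 3.16% of all genes. The 2 comparisons share no array but share the fit's estimate of spread per gene. Across genes the 2 sets of differences correlated with r = 0.557 over all 19505, 0.746 over the 6410 genes above background in both lines in water and 0.369 over the 11415 genes above it in no water array. These correlations are descriptions across genes, which are not independent. By level, 136 of the 165 genes measured in both lines passed again (82.4%), as did 68 of the 117 below background (58.1%). The ratio of the phenformin difference to the water difference had a median of 0.73 (quartiles 0.56 and 0.91) over the 124 higher genes and of 1.06 (0.86 and 1.24) over the 267 lower genes, a description of genes chosen by their water values. Fhl1 is an example of an equal difference, at -1.59 in water and -1.60 in phenformin, and so is Vil1, at 1.04 in each. Among genes of the higher set that did not pass in phenformin, Masp1 differed by 0.80 ± 0.12 in water and 0.39 ± 0.12 in phenformin.

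**Figure D4:**
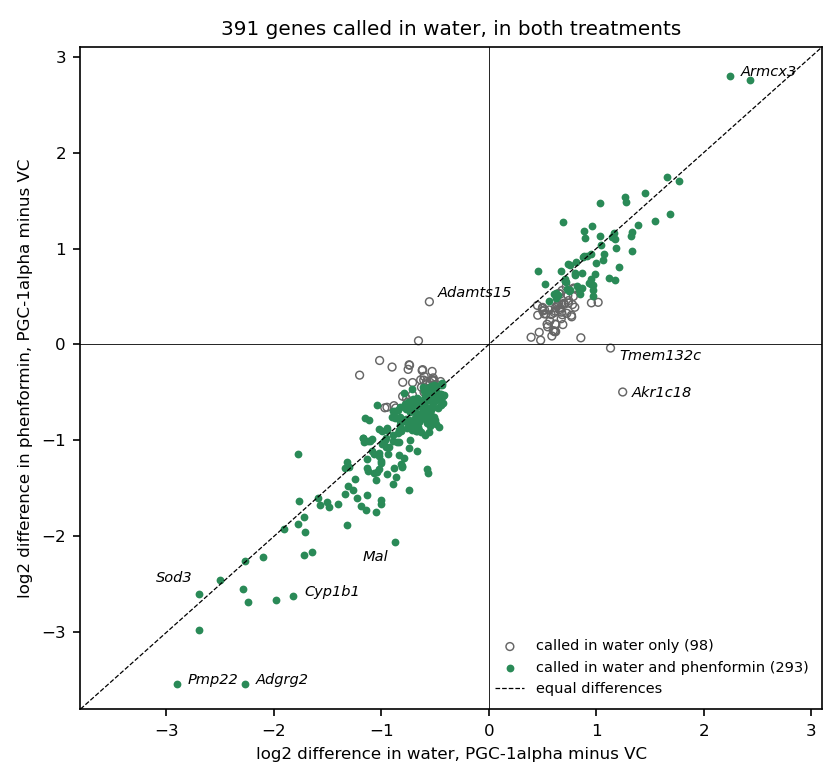
The 391 genes called in water, with the log2 difference between the lines in water on the horizontal axis and in phenformin on the vertical axis, both PGC-1alpha minus VC. The 293 filled points passed in both treatments and the 98 open ones in water alone, and the dashed line marks equal differences. Nearly all points lie at the lower left and upper right, and Akr1c18 and Adamts15 are among the 4 that do not.

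The difference between the line differences was tested as an interaction over all genes: 0 passed in limma's test after adjustment, 1018 had an unadjusted p under 0.05, and 53 of those were among the 391. The smallest p among the 391 belonged to Akr1c18, a steroid dehydrogenase, with 6.87, 6.84 and 7.48 in PGC-1alpha explants in water, against 6.02, 5.89 and 5.55 in VC explants. Akr1c18 was below background in all 6 of these arrays. Its line difference was 1.25 in water and -0.50 in phenformin, a change of -1.74 ± 0.27 (adjusted p = 0.164). Mal differed by -0.87 in water and -2.06 in phenformin (change -1.18 ± 0.19, adjusted p = 0.164). With trended, robust variances 3 genes passed the interaction test, Mal, Akr1c18 and Clic3, and with only genes above background in 3 arrays 1 did, Mal. A difference in response to treatment was thus called by these 2 settings and by none of the other settings in which it was counted. The fits without single arrays and the fit of the 6 water arrays gave no such count.

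Some called genes lie side by side. In the order of the RefSeq annotation, 33 of the 391 (8.44%) were next to another gene called in the same direction, in 17 pairs, 5 higher and 12 lower. The lower pairs included Col6a2 with Col6a1, Casp1 with Casp4, Gstm2 with Gstm1, Dtx3l with Parp9, and Loxl3 with the adaptor gene Dok1, which had 8.21, 8.21 and 8.33 in PGC-1alpha explants, against 8.70, 8.91 and 9.15 in VC explants (1.59-fold lower). The higher pairs included Fermt1 with Bmp2 and the multidrug transporters Abcb1a with Abcb1b, of which Abcb1a kept its call only without VC array 3 (adjusted p otherwise of up to 0.140). Some of these pairs are members of 1 family, and whether related probe sets measure each other was not tested.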

How the data were processed

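Total RNA of 12 explant samples was labelled from 10 ng with a kit for small inputs, per the labels' protocols, and measured on mouse Clariom S arrays. The deposited table holds 28815 probe sets on what was read as a log2 scale from its values; how the authors normalized and summarised them, and the log base, is not given in the sources used here. The 12 value columns of a second table match no sample label and were not used. Groups came from the sample titles. Symbols came from the platform annotation and a RefSeq table (GRCm38.p6): 19572 probe sets carry 1 symbol, 0 several, and 2634 transcript clusters none. The probe set with the highest mean was kept for each of 55 genes with several.

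The model, in limma 3.58.1 (lmFit, then eBayes; R 4.3.3), had 1 mean for each of 4 groups of the 12 arrays (8 residual degrees of freedom, prior 5.84), two-sided, with Benjamini-Hochberg adjustment over 19505 genes and a threshold of 0.05. Errors of differences are standard errors; n = 3 arrays per group, and their number limits the precision. The fit was tested on simulated data. No filter on level was applied. Where 1 line exceeded background in no array, the fold is a lower bound, given as "at least": the brighter line's mean is set against the dimmer line's arrays, each raised to its array's background where it lies under it. No fold is given where that bound is under 1.

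Genes considered by name were Ppargc1a, the largest rises and falls per level class (15, 10, 8 and 8 each way), the 10 smallest p, the called members of each list and the uncalled members nearest the threshold, and the largest interactions. Not all of them are described above. Genes named as markers, neighbours or promoter examples, with Sod2, Mfn2, Pprc1, Ppargc1b and Cycs, were picked after their values were seen. The members and all lists were chosen with earlier results of these data known, and 15 lists and the motifs after the differences had been seen. Alternatives were the 15 settings of the closing section.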

Additional observations from a re-analysis of the deposited data

Results flagged for a closer look

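Among the genes considered by name, 2 had line differences of opposite sign in the 2 treatments with no overlap between the lines in either. For Adamts15, a matrix protease below background, the arrays had 5.49, 5.10 and 5.40 in PGC-1alpha explants in water, against 5.91, 5.97 and 5.76 in VC explants. Its line difference was -0.55 in water and 0.45 in phenformin, a change of 0.999 with an interaction adjusted p of 0.183 in limma, so the change did not pass, and its water call was kept only without PGC-1alpha array 1 or VC array 3 (adjusted p otherwise of up to 0.128). For Rsad2, the antiviral enzyme viperin, which was also below background, the arrays had 5.36, 5.26 and 5.46 in PGC-1alpha explants in water, against 5.05, 4.83 and 5.10 in VC explants. In water the lines differed by 0.37 (limma adjusted p = 0.131), in phenformin by -0.14, and the change of -0.506 did not pass.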

How the results depend on the processing

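The 391 water calls became 626 with trended, robust variances and 193 with the gap between control probe sets as a covariate. They became 140 when only the 6 water arrays were fitted, where the spread came from those arrays alone. The cause of these changes was not tested. Leaving out single arrays gave 247 to 330 calls. The count was 305 with array weights, 468 after a second quantile normalization, 382 centred on negative controls and 390 with probe sets averaged. Among the 7640 genes above background in 3 arrays it was 561, where the fit of all genes called 265. With the replicate number as a block the count was 280. Whether the numbers pair the samples is not stated in the labels used here. Same-numbered arrays of the lines in water correlated at -0.19, -0.15 and 0.023 in their deviations from the group means. Differently numbered ones correlated at -0.28 to 0.407. With 3 arrays per group, these correlations cannot decide whether samples were paired. No call of the 391 changed sign in a setting that tested it; the filter on level left 265 of them to test. The 783 phenformin calls became 1624 with array weights and 440 centred on negative controls, and the 0 interaction calls became 3 with trended, robust variances and 1 among genes above background in 3 arrays. Ppargc1a differed by 0.94 to 1.11 and passed in every setting. Of 2294 values of 156 named genes that the main fit called, 1892 stayed past the threshold, 402 lost their call and 0 reversed. Of 1181 values of 79 list medians, 972 stayed within 1 replicate standard deviation of the list mean and 209 moved further. Differences below the negative controls' 95th percentile have no fold, and 3 arrays per line limit every value.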

Other observations

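Some gene groups outside the comparisons above were looked at after the differences had been seen, so their counts are descriptions. Of 16 Hedgehog pathway genes 3 were lower (18.8%, beside 1.37% of all genes), all below background. The transcription factor Gli3 had 5.27, 5.11 and 5.07 in PGC-1alpha explants, against 6.17, 6.16 and 6.32 in VC explants. Disp2 (-1.12 ± 0.13) and the Hedgehog acyltransferase Hhat (-0.88 ± 0.13) also passed. Their list's median was 0.01. Of 10 syndecans and glypicans, the heparan sulfate proteoglycans of the cell surface, 3 were lower with a median of -0.24. Gpc1 had 7.87, 7.69 and 7.81 in PGC-1alpha explants, 1 of them above background, against 8.96, 8.83 and 8.96 in VC explants, a difference of -1.13 ± 0.11. Sdc1 and Sdc3 were lower too, each with a log2 difference of -0.59 ± 0.12. Sdc1 kept its call only without PGC-1alpha array 3 (adjusted p otherwise of up to 0.115), and Sdc3 lost it without PGC-1alpha array 1 or 2 or VC array 1 (up to 0.0778).

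Of 14 aldo-keto reductases 3 were higher (21.4%, beside 0.636% of all genes) and 0 lower. The higher ones were the neighbouring and similar genes Akr1c18, Akr1c12 and Akr1c13, of which Akr1c18 was below background in all 6 arrays. Akr1c13 had 9.20, 9.24 and 9.05 in PGC-1alpha explants, against 8.36, 8.47 and 8.79 in VC explants, 1.54-fold higher, and like Akr1c12 it lost its call without PGC-1alpha array 1 or 2 or VC array 1 or 2 (adjusted p of up to 0.107). The drug transporter Abcb1b had 8.24, 8.52 and 8.48 in PGC-1alpha explants, against 7.55, 7.46 and 7.79 in VC explants, of which 1 was above background, a difference of 0.82 ± 0.12. Of 330 genes whose symbol is Zfp with a number, mostly zinc finger proteins, 6 were higher and 0 lower (1.82%, beside 2.0% of all genes), and 47 did not overlap upwards and 5 downwards, beside 6.53% and 7.61% of all genes. Their median was 0.08. Centring on the negative controls lowers every difference by 0.088 and so puts it at -0.005, with its place relative to all genes unchanged.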
